A study of Mus musculus with 4 samples.

Results

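The clustered histone genes encode the core histones H2a, H2b, H3 and H4, and 48 probe sets for them were read on each of 4 arrays. A probe set, the group of probes that the array summarizes to one value, was taken when any gene symbol in its annotation began with Hist1h, Hist2h, Hist3h or Hist4h, or with H2ac, H2bc, H3c or H4c followed by a number. The 48 were drawn from 28853 probe sets counted on the array and carried 57 distinct clustered histone symbols. Of them, 22 had 1 symbol, 2 had 2 symbols and 24 had between 11 and 20. By class, 4 probe sets were H2a, 16 were H2b, 13 were H3 and 12 were H4, and 3 spanned classes. No probe set of an H1 linker gene met the rule, because the annotation names those genes H1f.

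Each array held RNA from donor cells sorted out of the bone marrow of fetal liver chimeras. B6.SJL recipients had received 1200 rad and fetal liver cells from WT or Bcl11a-/- fetuses, whose targeted allele lacks the first exon of Bcl11a, and marrow was collected after 4 weeks. The genetic background of every sample is given as B6.SJL, which in the methods is the strain of the irradiated recipients. The sorted cells came from the donors, and the methods do not name the strain of the donor fetuses. WT and Bcl11a-/- cells were each sorted as GMPs (granulocyte-macrophage progenitors) and as MPPs (multipotent progenitors, here CD150-negative Lin-Sca-1+c-Kit+ cells), which gives 4 conditions. Cells of 1 genotype were pooled and the number of animals in a pool is not given, and GMPs and MPPs came from the same marrow. With 1 array per condition there are no replicates, so no difference here has an error, an SD or a p-value, and counts and medians are set beside those of all probe sets. Values are RMA log2 signals, on which a difference of 1 is a 2-fold change and a value under 5 is taken as dim.

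Most markers of each label differed between the WT arrays in the direction of the label, those of MPPs by less. Of 12 GMP genes, 11 had a lower signal in WT MPPs than in WT GMPs, where 42.8% of all genes did. Their median log2 difference was -1.28, and 7 were over 2-fold lower (2.8% of all genes). Of 10 MPP genes, 8 were higher in WT MPPs, where 57% of all genes were, with a median of 0.54. Of these, 2 were over 2-fold higher (1.33% of all genes), while Gata2 and Procr were lower, each with a difference of -0.12. Markers of other cells were higher in WT MPPs than in WT GMPs too. Of 14 B lineage genes, 13 were higher, 9 over 2-fold (1.33% of all genes), with a median of 1.74. Of 11 erythroid genes, 10 were higher, 5 over 2-fold, with a median of 0.54. The Bcl11a signal was 8.60 (WT) and 7.77 (Bcl11a-/-) in GMPs and 9.89 (WT) and 8.64 (Bcl11a-/-) in MPPs, lower in the Bcl11a-/- sample of each population but not absent. Which exons its probes cover was not analysed here, so this signal does not check the deletion itself. The spread of signals was narrower on the array of Bcl11a-/- MPPs, where 1136 probe sets exceeded a log2 signal of 10, than on those of WT MPPs (1339), Bcl11a-/- GMPs (1498) and WT GMPs (1532).

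Replication-dependent histone genes lie together in the genome, in mouse mainly on chromosomes 13 and 3. They have no introns, and their mRNAs end in a conserved stem-loop bound by Slbp in place of a poly(A) tail. They are transcribed during S phase under the coactivator Npat and supply histones for newly copied DNA, whereas variant genes such as those of H3.3 are expressed throughout the cell cycle. Several copies encode the same or nearly the same protein, and their coding sequences are so alike that one set of probes can match many of them. Total histone mRNA is therefore often read as a measure of how many cells in a population are replicating their DNA. In a pool of cells, fewer cells in S phase and less histone mRNA per cell cannot be told apart.

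In GMPs, nearly the whole family had a lower signal without Bcl11a. The signal was lower in Bcl11a-/- than in WT GMPs for 45 of 48 histone probe sets (93.8%), where 48% of all probe sets were lower. The median log2 difference was -0.30 for the histone probe sets and 0.01 for all probe sets. Of the 22 sets with 1 symbol, 19 (86.4%) were lower. The differences were mostly small: 3 of 48 (6.25%) were over 2-fold lower, where 0.35% of all probe sets were, and 0 were over 2-fold higher, where 0.319% were. Among probe sets with a signal of at least 6 on either array, 42 of 45 members were lower, where 53.7% of all were. Of the 45, 3 were over 2-fold lower, where 0.384% of all were. Among these, H4c17 with H4c11 and H3c15 passed the filter through the WT array alone. They read 6.20 and 6.17 in WT GMPs and 4.80 and 5.03 in Bcl11a-/- GMPs, so the filtered count does not set dim signals aside. The median difference lay between -0.28 and -0.40 under every alternative processing tried.

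In MPPs the family split. The signal was lower in Bcl11a-/- than in WT MPPs for 33 of 48 histone probe sets (68.8%), where 44% of all probe sets were lower. The median log2 difference of the 48 was -0.12, against 0.05 for all probe sets. Many of the 48 share their symbols and so are not separate genes. Of the 22 sets with 1 symbol, 12 (54.5%) were lower and 10 higher, with a median of -0.10. Of the 48, 4 (8.33%) were over 2-fold lower, where 2.51% of all probe sets were, and 0 were over 2-fold higher, where 1.39% were. Most histone sets are bright, so probe sets with a signal of at least 6 on either array are a closer background. Among these, 30 of 42 members were lower, where 54.1% of all were, with a median of -0.12 against -0.04. Of the 42, 3 were over 2-fold lower, where 4.82% of all were. Among these, H2ac4 passed the filter through the WT array alone, at 7.65 against 4.83 in Bcl11a-/- MPPs. The median of the family did not keep its sign in MPPs. It was 0.042, with 18 of 48 lower, once each difference was centred by lowess on signals of like size. It was 0.24, with 14 of 48 lower, once the arrays of WT and Bcl11a-/- MPPs were quantile normalized anew to a common distribution.

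Signals of the family were lower in MPPs than in GMPs of either genotype. In WT cells, 44 of 48 histone probe sets (91.7%) had a lower signal in MPPs than in GMPs, where 42.8% of all probe sets did, with a median log2 difference of -0.55 against 0.06. Of them, 4 were over 2-fold lower, where 2.67% of all probe sets were, and 0 were over 2-fold higher, where 1.55% were. In Bcl11a-/- cells, 41 of 48 (85.4%) were lower in MPPs, where 39.6% of all probe sets were, with a median of -0.30 against 0.11. Here 6 were over 2-fold lower (5.91% of all probe sets) and 1 was over 2-fold higher (3.08%). Of the 22 sets with 1 symbol, 18 (81.8%) were lower in MPPs in WT and 15 (68.2%) in Bcl11a-/- cells. Among probe sets with a signal of at least 6 on either array, 42 of 45 members were lower in WT and 37 of 42 in Bcl11a-/- cells, against 53.3% of all in each. Over 2-fold lower were 4 of 45 in WT (5.46% of all) and 6 of 42 in Bcl11a-/- cells (12.1% of all). Among these, H4c17 with H4c11 in WT, and H2ac4 and H4c3 in Bcl11a-/- cells, passed the filter through the GMP array alone. The WT median stayed between -0.60 and -0.47 under the alternatives. The Bcl11a-/- median turned to 0.065, with 23 of 48 lower, when those arrays were quantile normalized anew. These comparisons share arrays with the comparisons of genotypes, so their values do not stand as separate support for one another.

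**Figure D1:**
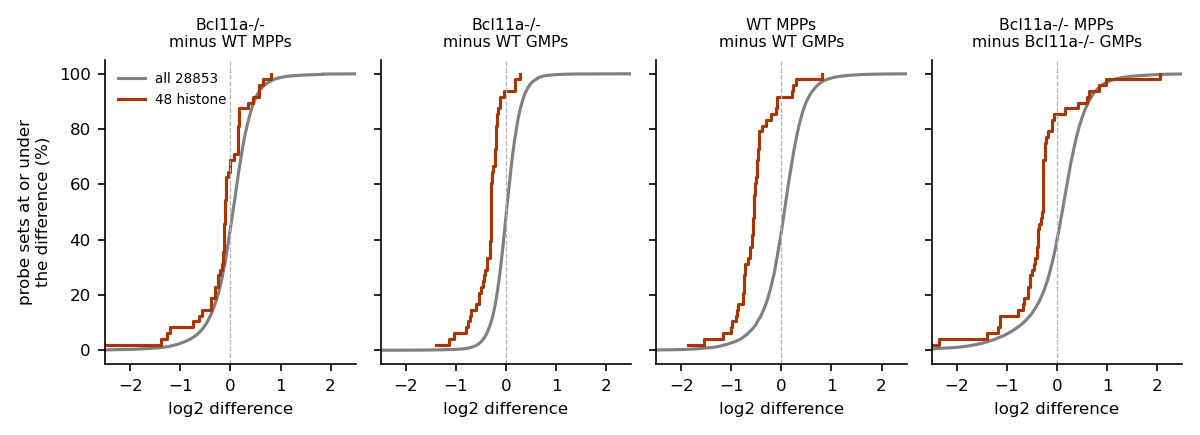
Cumulative share of probe sets (y axis, percent) at or under each log2 difference (x axis) in the 4 comparisons, for the 48 clustered histone probe sets (brown steps) and all 28853 probe sets (gray line). The brown curve lies left of the gray one through most of each panel, and the median shift from WT GMPs to WT MPPs was -0.55.

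The probe sets with more than 2 symbols read each class as a pool. All 10 pooled H3 sets carry the same 12 symbols, all 5 pooled H4 sets the same 11, and the 7 pooled H2b sets 14 or 15. Another 2 sets carry H2a symbols together with H3c4, and 1 of the 2 also the variants H2ax and H2aj, the other H2ax alone of that pair. Sets of one pool share targets, so they are repeated readings of the same transcripts on the same arrays and not replicates. A pair of H4 sets had equal values on all 4 arrays, as did a pair of H2b sets.

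The pooled H3 sets lay in GMPs from 12.27 to 12.58 (WT) and from 11.85 to 12.28 (Bcl11a-/-), and in MPPs from 11.71 to 12.02 (WT) and from 11.61 to 11.93 (Bcl11a-/-). Each of the 10 was lower without Bcl11a in both populations, with differences of -0.42 to -0.29 in GMPs and of -0.15 to -0.08 in MPPs. The pooled H2b sets lay in GMPs from 12.16 to 12.79 (WT) and from 11.94 to 12.62 (Bcl11a-/-), and in MPPs from 11.67 to 12.33 (WT) and from 11.42 to 12.15 (Bcl11a-/-). Each of the 7 was also lower in both populations, with differences of -0.23 to -0.12 in GMPs and of -0.40 to -0.02 in MPPs. The MPP sign of both pools depended on the scaling: the class medians of all H3 and all H2b sets were -0.12 and -0.23 as deposited, and 0.25 and 0.10 after quantile normalization anew.

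The pooled H4 sets went the other way in MPPs. Their medians were 11.94 (WT) and 11.63 (Bcl11a-/-) in GMPs and 11.19 (WT) and 11.35 (Bcl11a-/-) in MPPs. All 5 were lower in Bcl11a-/- than in WT GMPs and higher in Bcl11a-/- than in WT MPPs. The median over the 12 H4 sets was -0.31 in GMPs and 0.15 in MPPs, but over the 6 H4 sets with 1 symbol it was -0.54 in GMPs and -0.09 in MPPs, so the pooled sets set the sign in MPPs. The median over the 12 stayed above 0 in MPPs with lowess centring, at 0.30, and after quantile normalization anew, at 0.45. The 2 pooled sets of H2a with H3c4 were lower in both populations, with differences of -0.20 and -0.13 in GMPs and of -0.14 and -0.12 in MPPs.

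**Figure D2:**
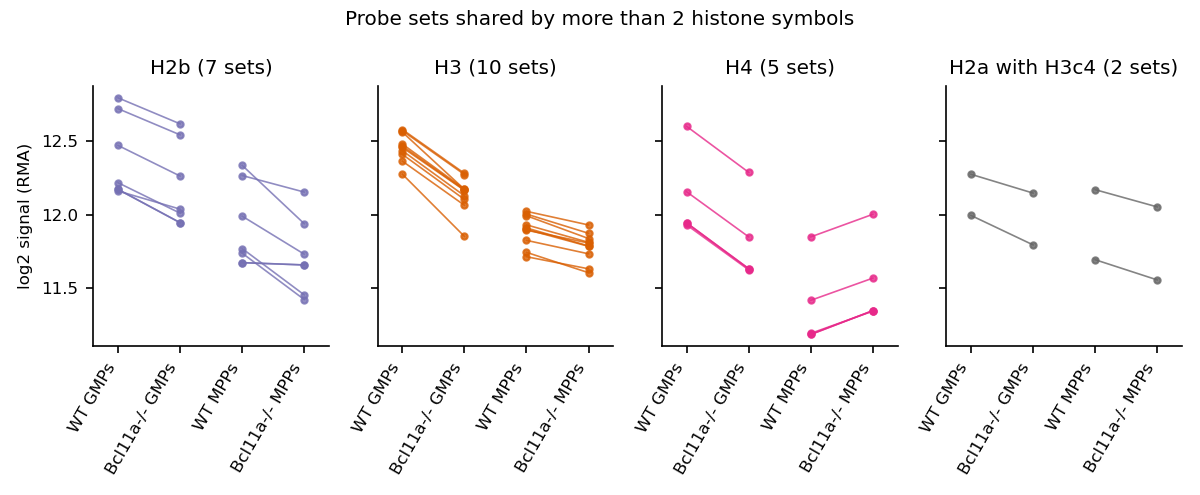
Log2 signal (y axis) of the 24 probe sets with more than 2 symbols in the 4 conditions, by class, with a line joining the WT and Bcl11a-/- values of one probe set in one population. Every line falls from WT to Bcl11a-/- in GMPs, and in MPPs the 5 H4 lines alone rise on the deposited scale, where the H2b and H3 medians turn above 0 after quantile normalization anew.

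The 24 probe sets with 1 or 2 symbols come closer to single genes, and they differed more among themselves. Their differences ranged from -1.40 to 0.27 in GMPs and from -2.83 to 0.80 in MPPs, and 7 of them account for every histone difference over 2-fold between genotypes. These were H4c17 with H4c11, H3c15 and H4c3 in GMPs, and H2ac4, H4c4, H2bc3 and H3c7 in MPPs. None of the 48 was over 2-fold lower in both populations, where 0.121% of all probe sets were.

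**Figure D3:**
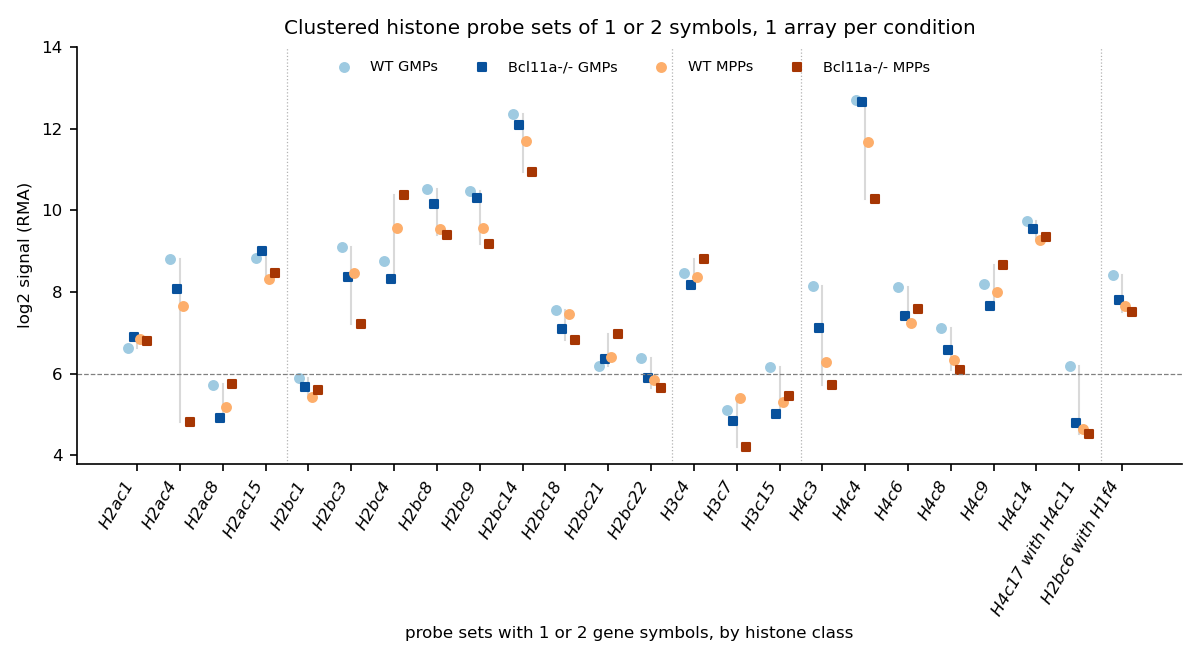
Log2 signal (y axis) of the 24 probe sets with 1 or 2 symbols (x axis, grouped by class between dotted lines), 1 point per array. Circles are WT and squares Bcl11a-/- arrays, blue for GMPs and orange to brown for MPPs, and the dashed line marks a signal of 6. The square of Bcl11a-/- MPPs stands far under the other points for H2ac4, at 4.83, and above them for H2bc4, at 10.38.

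In MPPs, 3 genes with a signal of at least 6 on either array were over 2-fold lower without Bcl11a, and H4c9 was among the 3 that were highest above WT. The other 2 of those highest, H2bc4 and H2bc21, have no promoter entry, so H4c9 is the only gene printed for the higher side. The 4 promoters are printed to show how the letters of the elements known from histone genes lie in front of genes that differed in opposite directions. Each line is the 150 bases just before the RefSeq start, 5' to 3' on the gene's own strand, from build GRCm38.p6. Capitals mark TATAAA, the box bound by the TATA-binding protein, CCAAT, bound by NF-Y, and ATTTGCAT, the octamer bound by Oct1 and known from H2b promoters, each searched on both strands with no overlap between them. H2ac4 is at chr13:23750938-23751087 on the plus strand, H2bc3 at chr13:23746584-23746733 on the plus strand, H4c4 at chr13:23581418-23581567 on the plus strand and H4c9 at chr13:22041363-22041512 on the minus strand.
H2ac4: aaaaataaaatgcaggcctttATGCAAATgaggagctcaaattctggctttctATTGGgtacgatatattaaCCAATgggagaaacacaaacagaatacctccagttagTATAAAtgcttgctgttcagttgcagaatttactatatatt
H2bc3: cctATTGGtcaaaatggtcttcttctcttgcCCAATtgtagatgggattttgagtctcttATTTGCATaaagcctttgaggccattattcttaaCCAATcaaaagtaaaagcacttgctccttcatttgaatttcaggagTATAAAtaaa
H4c4: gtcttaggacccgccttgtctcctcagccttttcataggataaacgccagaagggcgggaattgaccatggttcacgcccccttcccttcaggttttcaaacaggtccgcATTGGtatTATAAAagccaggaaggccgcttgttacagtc
H4c9: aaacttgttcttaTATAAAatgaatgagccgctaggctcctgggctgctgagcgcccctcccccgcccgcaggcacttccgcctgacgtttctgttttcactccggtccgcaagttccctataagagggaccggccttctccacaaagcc
H2ac4 and H2bc3 each hold the octamer, CCAAT letters and TATAAA in this stretch, H4c4 holds TATAAA next to CCAAT letters, and H4c9 holds only TATAAA, 137 bases before the start. TATAAA began 41 bases before the start in H2ac4, 10 in H2bc3 and 32 in H4c4. Because H4c9 is an H4 gene and H2ac4 and H2bc3 are not, letters that go with class and with direction cannot be told apart here. A match is a description of letters and not a mapped binding site.

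In the promoter table of RefSeq, which runs from 250 bases before to 50 after the start, 53 entries matched 52 of the 57 symbols. CCAAT letters stood in 45 of the 53 (84.9%), where 37.4% of all 32851 promoters hold them. They stood in all 17 H2a, all 15 H2b and all 10 H3 entries but in 3 of 11 H4 entries. TATAAA stood in 30 of 53 (56.6%), where 13.6% of all promoters hold it. The octamer stood in 13 of 53 (24.5%) against 1.74% of all promoters, in 7 H2b and 6 H2a entries and in 0 of the H3 and H4 entries. H2bc4, H2bc21, H3c7, H4c14 and H3c1 had no entry.

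H2ac4, an H2a gene of the chromosome 13 cluster, differed most among the members. Its signal was 8.82 (WT) and 8.07 (Bcl11a-/-) in GMPs and 7.65 (WT) and 4.83 (Bcl11a-/-) in MPPs. It was 7.10-fold lower in Bcl11a-/- than in WT MPPs, a log2 difference of -2.83, and the value in Bcl11a-/- MPPs lay in the dim range. In GMPs its difference was -0.75, under 2-fold.

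H2bc3 lies next to H2ac4 in the RefSeq order of histone genes, and like it was lower in Bcl11a-/- cells of both populations. It encodes an H2b. Its signal was 9.09 (WT) and 8.38 (Bcl11a-/-) in GMPs and 8.47 (WT) and 7.21 (Bcl11a-/-) in MPPs. The differences were -0.71 in GMPs and -1.27, or 2.40-fold, in MPPs.

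H4c4 encodes H4, and its lower signal without Bcl11a lay in MPPs. It read 12.69 (WT) and 12.64 (Bcl11a-/-) in GMPs and 11.68 (WT) and 10.29 (Bcl11a-/-) in MPPs. The difference was -0.05 in GMPs and -1.39, or 2.63-fold, in MPPs, and the latter became -0.997, just inside 2-fold, after quantile normalization anew. H4c4 is also one of the 11 symbols of the pooled H4 sets, which were higher in Bcl11a-/- MPPs.

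H3c7 was over 2-fold lower in Bcl11a-/- MPPs as deposited, but its signal was under 6 on all 4 arrays. It read 5.10 (WT) and 4.85 (Bcl11a-/-) in GMPs and 5.40 (WT) and 4.20 (Bcl11a-/-) in MPPs. The MPP difference of -1.21 became -0.40 when signals under 5 were set to 5.

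H2bc4 and H4c9 were higher in Bcl11a-/- MPPs, though neither reached 2-fold. H2bc4, an H2b gene, read 8.77 (WT) and 8.33 (Bcl11a-/-) in GMPs and 9.58 (WT) and 10.38 (Bcl11a-/-) in MPPs. H2bc4 and H2bc21 had a higher signal in MPPs than in GMPs in both genotypes. The margin of H2bc4 was the widest among the members, with differences of 0.81 in WT and 2.06, or 4.16-fold, in Bcl11a-/- cells. Those of H2bc21 were 0.21 and 0.61. H4c9 read 8.21, 7.66, 7.99 and 8.65 in the same order of samples. Between genotypes both were lower in GMPs, with differences of -0.44 for H2bc4 and -0.55 for H4c9, and higher in MPPs, with 0.80 and 0.66. After quantile normalization anew H2bc4 passed 2-fold in MPPs, at 1.09.

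H2bc21 encodes the variant H2BE, known from olfactory neurons, and it was higher in Bcl11a-/- cells of both populations. Its signal was 6.19 (WT) and 6.37 (Bcl11a-/-) in GMPs and 6.40 (WT) and 6.98 (Bcl11a-/-) in MPPs. The differences were 0.18 in GMPs and 0.57 in MPPs. H2ac15 was the only other member higher in both populations, by 0.18 and 0.16. H2ac1, the testis histone TH2A, read 6.62, 6.90, 6.85 and 6.81, which puts it higher in Bcl11a-/- GMPs by 0.27, with a difference of -0.05 in MPPs.

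In GMPs, the members over 2-fold lower without Bcl11a were 2 of H4 and 1 of H3. The probe set of H4c17 with H4c11 read 6.20 (WT) and 4.80 (Bcl11a-/-) in GMPs and 4.66 (WT) and 4.53 (Bcl11a-/-) in MPPs. Its 2.64-fold difference in GMPs therefore separates 1 array with a signal over 6 from 3 dim ones. H3c15, in the chromosome 3 cluster, read 6.17 in WT GMPs and 5.03 in Bcl11a-/- GMPs, with 5.30 (WT) and 5.45 (Bcl11a-/-) in MPPs, a difference of -1.15 in GMPs and 0.15 in MPPs.

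H4c3 was highest in WT GMPs and lowest in Bcl11a-/- MPPs, with a step at each change of genotype and population. It read 8.14 (WT) and 7.11 (Bcl11a-/-) in GMPs and 6.29 (WT) and 5.71 (Bcl11a-/-) in MPPs. The difference between genotypes was -1.03 in GMPs (2.05-fold), or -0.998 after quantile normalization anew, and -0.57 in MPPs. From WT GMPs to WT MPPs it was -1.86, or 3.62-fold, the largest such difference among the members.

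The other H2b genes with a probe set of their own were lower without Bcl11a in both populations, with the exception of H2bc1. H2bc14 read 12.36 (WT) and 12.08 (Bcl11a-/-) in GMPs and 11.69 (WT) and 10.94 (Bcl11a-/-) in MPPs, and H2bc18 read 7.56, 7.11, 7.47 and 6.83 in the same order. Their MPP differences were -0.75 and -0.63, and their GMP differences -0.28 and -0.46. H2bc8 (10.53, 10.16, 9.55 and 9.39) and H2bc9 (10.47, 10.31, 9.56 and 9.18) differed between populations more than between genotypes, with MPP minus GMP differences of -0.98 and -0.90 in WT and of -0.77 and -1.13 in Bcl11a-/- cells. H2bc22 (6.38, 5.89, 5.85 and 5.65) differed by -0.50 between genotypes in GMPs and by -0.53 between populations in WT. H2bc1, the testis histone TH2B, stayed under 6 on all 4 arrays and differed by -0.21 in GMPs and 0.17 in MPPs.

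Of the remaining H3 and H4 genes, H4c8 alone was lower in both populations. It read 7.12 (WT) and 6.58 (Bcl11a-/-) in GMPs and 6.35 (WT) and 6.09 (Bcl11a-/-) in MPPs, with differences of -0.54 and -0.26. H3c4 read 8.46, 8.18, 8.37 and 8.81 and H4c14 read 9.73, 9.53, 9.27 and 9.35 in that order, each lower in Bcl11a-/- GMPs (-0.29 and -0.20) and higher in Bcl11a-/- MPPs (0.44 and 0.08). The probe set of H2bc6 with the linker gene H1f4 read 8.41, 7.81, 7.65 and 7.502, a difference of -0.60 in GMPs and -0.15 in MPPs.

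**Figure D4:**
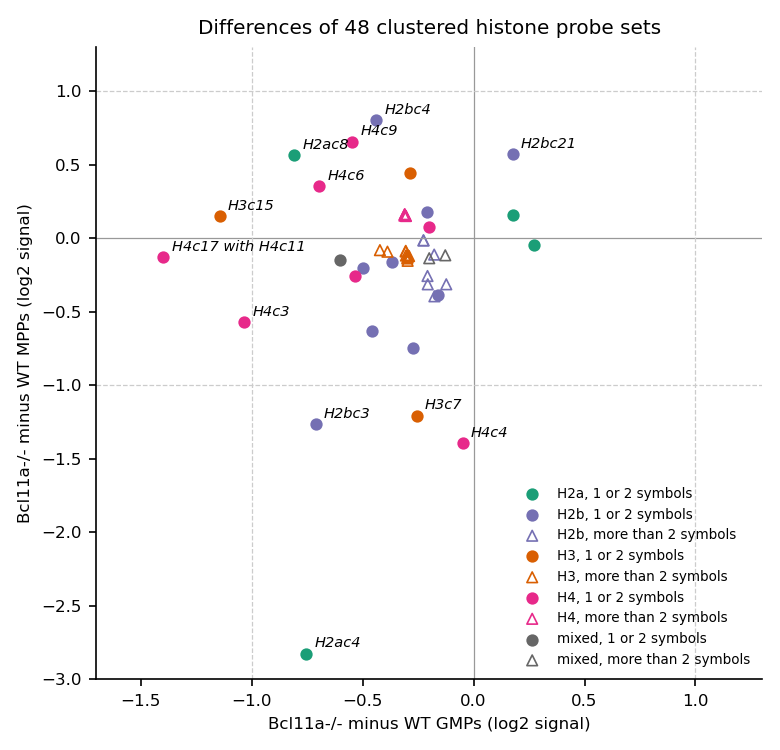
Log2 difference of Bcl11a-/- minus WT in GMPs (x axis) against that in MPPs (y axis) for the 48 probe sets, colored by class, with filled circles for 1 or 2 symbols and open triangles for more. Dashed lines mark 2-fold. As deposited, 32 points lie at the lower left and 13 at the upper left, a split that becomes 17 and 28 with lowess centring and 13 and 32 after quantile normalization anew, with H2ac4 lowest at -2.83.

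Between populations, 32 of 48 members (66.7%) were lower without Bcl11a in both, where 23.5% of all probe sets were. Another 13 (27.1%) were lower in GMPs and higher in MPPs, where 24.4% of all probe sets were. This split held only for the deposited scale and for centring on the median. With lowess centring, 17 members were lower in both (26.8% of all probe sets) and 28 were lower in GMPs and higher in MPPs (23.2%), and after quantile normalization anew the counts were 13 (25.5%) and 32 (24.0%). As deposited, the 13 included the 5 pooled H4 sets, H2bc4, H4c9, H4c6 and H2ac8. The 48 include the 24 pooled sets, which are repeated readings and not separate genes. All 24 were lower in GMPs and 19 of them were lower in MPPs. H4c6 read 8.12, 7.42, 7.23 and 7.58 and H2ac8 read 5.73, 4.92, 5.19 and 5.75 in GMPs (WT, then Bcl11a-/-) and MPPs (WT, then Bcl11a-/-). Whether the effect of genotype differed between the populations could not be tested with 1 array per condition.

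Along the clusters, on the deposited scale, genes that were higher and genes that were lower in Bcl11a-/- MPPs were interspersed. Of the 22 genes with a probe set of their own, 18 lie on chromosome 13 and 4 on chromosome 3. On chromosome 13, 16 of 18 were lower in Bcl11a-/- GMPs and 11 of 18 in Bcl11a-/- MPPs. On chromosome 3 the counts were 3 of 4 and 1 of 4. H2bc4, higher in Bcl11a-/- MPPs, stood between H4c4 and H4c3, both lower there, in the order of these 18 genes.

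The H1 linker histones, which bind DNA between nucleosomes, fall outside the rule, and 5 of them in the same cluster had a probe set of their own. Of these, H1f3 and H1f6 were dim on nearly every array. H1f2 read 9.11, 8.43, 8.07 and 7.74, H1f1 read 8.14, 7.90, 8.31 and 7.84, and H1f5 read 10.72, 10.51, 10.80 and 10.04 in GMPs (WT, then Bcl11a-/-) and MPPs (WT, then Bcl11a-/-). All 3 were lower without Bcl11a in both populations, and the median of the 5 was -0.21 in GMPs and -0.33 in MPPs.

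Among the replication-independent variants, 2 stood well under WT in Bcl11a-/- MPPs on the deposited scale. Of 9 measured, 5 were lower in Bcl11a-/- MPPs, 2 of them over 2-fold, with a median of -0.08. Among all 19938 genes measured by probe sets of 1 symbol, 44.2% were lower and 2.02% over 2-fold lower. The variant median in MPPs turned to 0.021 with lowess centring and to 0.092 after quantile normalization anew, with 4 of 9 lower under each. Values of single variant genes are given on the deposited scale only. Macroh2a1, a variant with a large extra domain, read 10.81, 10.70, 11.37 and 9.91 in GMPs (WT, then Bcl11a-/-) and MPPs (WT, then Bcl11a-/-). H2az2, which encodes an H2A.Z, read 10.25, 10.24, 10.49 and 9.29. Their differences in GMPs were -0.10 and -0.02, and in MPPs -1.46 and -1.20. H2ax, the variant phosphorylated at DNA breaks, was lower in both populations, with differences of -0.31 in GMPs and -0.77 in MPPs. Cenpa, the centromeric H3 and the gene nearest the list median, differed by 0.05 in GMPs and -0.08 in MPPs. The 4 probe sets that pair H3f3a, which encodes H3.3, with Gm12657 differed by -1.15, -0.97, -0.86 and -0.81 in MPPs, and none by more than 0.13 in either direction in GMPs. The 2 sets that pair H3f3b, the other H3.3 gene, with Gm6485 differed by -0.61 and -0.51 in MPPs. The only H3f3a set of 1 symbol, the one counted among the 9, had signals between 4.92 and 5.24 and went the other way, by 0.19 in MPPs and 0.32 in GMPs. In GMPs the variants had a median of -0.02 and 0 of 9 were over 2-fold different, where 0.281% of all genes were over 2-fold lower and 0.361% higher. That median was 0.015 with lowess centring and 0.044 after quantile normalization anew.

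Of 15 genes for transcription, 3' end processing and decay of histone mRNA, 4 were lower in Bcl11a-/- GMPs and 7 in Bcl11a-/- MPPs, where 47.8% and 44.2% of all genes were, with medians of 0.06 and 0.02. All 15 were within 2-fold of WT, as were 99.4% of all genes in GMPs and 97.1% in MPPs. Slbp, the stem-loop binding protein, read 8.49, 8.47, 8.03 and 7.67 in GMPs (WT, then Bcl11a-/-) and MPPs (WT, then Bcl11a-/-). Npat, the coactivator, read 7.41, 7.37, 7.78 and 8.16. Slbp was thus lower and Npat higher in Bcl11a-/- MPPs, with differences of -0.36 and 0.37, against -0.02 and -0.04 in GMPs. Srrt, the gene nearest the median of this list, differed by 0.02 in GMPs and -0.06 in MPPs.

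Histone chaperones, which carry new histones to DNA, and DNA replication genes were mostly lower without Bcl11a on the deposited scale, by small amounts. Of 18 chaperone genes, 16 were lower in Bcl11a-/- MPPs and 13 in Bcl11a-/- GMPs, where 44.2% and 47.8% of all genes were, with medians of -0.20 and -0.03. Of 24 replication genes, 21 were lower in MPPs and 16 in GMPs, with medians of -0.18 and -0.09. Of 14 mitosis genes, 12 and 10 were lower, with medians of -0.31 and -0.16. No gene of these 3 lists was over 2-fold different between genotypes, and 99.4% of all genes in GMPs and 97.1% in MPPs were within 2-fold too. In GMPs the histone median of -0.30 was further from 0 than that of any of these lists. It is a median over probe sets, many of them pooled, and the list medians are over genes. Over the histone sets with 1 symbol it was -0.40. In MPPs the list medians also depended on the scaling, and after quantile normalization anew they were -0.062 for chaperones, 0.010 for replication and -0.092 for mitosis, against 0.24 for the histones. In GMPs, 9 of 18 chaperone genes were lower with lowess centring (median -0.002) and also after quantile normalization anew (median 0.0). Under each of these scalings, 15 of 24 replication and 9 of 14 mitosis genes were lower in GMPs. Representative genes, those nearest each list's median, were Asf1b at -0.01 and -0.18, Lig1 at 0.03 and -0.32 and Aurka at -0.15 and -0.31 in GMPs and MPPs.

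Markers of other cells moved with genotype on the same arrays. All 11 erythroid genes were higher in Bcl11a-/- GMPs, 6 over 2-fold (0.361% of all genes), with a median of 1.03, and their mean signal was 6.87 in WT and 8.05 in Bcl11a-/- GMPs. Rhag, Car1 and Ermap differed by 2.14, 2.08 and 1.74 there. In MPPs all 11 erythroid genes were higher too, where 55.6% of all genes were, with a median of 0.45. There 0 of them were over 2-fold higher (0.908% of all genes). All 14 B lineage genes were lower in Bcl11a-/- MPPs, 11 over 2-fold (2.02% of all genes), with a median of -2.62, and their mean signal was 7.66 in WT and 5.24 in Bcl11a-/- MPPs, where 5 of them were under 5. Vpreb1, Cd79a and Ebf1 differed by -4.25, -4.14 and -3.83 there. In GMPs all 14 were lower too, 5 over 2-fold (0.281% of all genes), with a median of -0.68. In MPPs, 4 of 12 GMP genes were also over 2-fold lower, among them Ms4a3 at -2.68, Prtn3 at -2.65 and Elane at -2.44, while Mpo, nearest the list median, differed by -0.50. Of the other GMP genes, 5 were higher there, namely Cebpe (0.87), Cd34 (0.48), Fcgr3 (0.47), Csf3r (0.26) and Cebpa (0.02). Of the MPP genes, Mycn was higher by 1.78 and Flt3 lower in MPPs, with a difference of -1.60, and Gata2 was higher by 1.19 in GMPs. Whether these marker differences lie in which cells were sorted or in expression within them was not tested. Their part in the histone signals was not tested either.

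**Figure D5:**
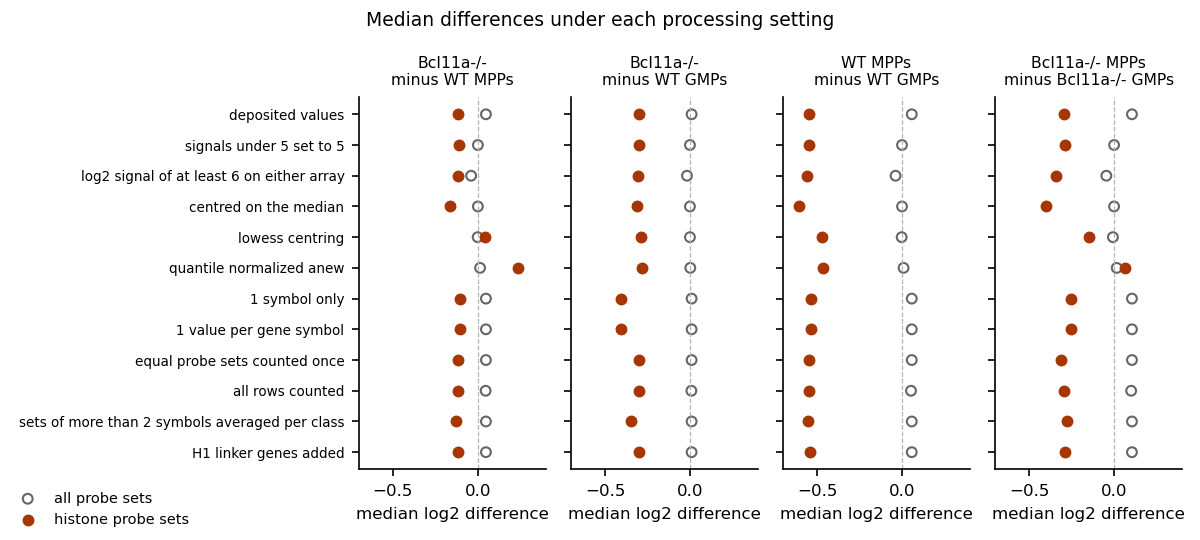
Median log2 difference (x axis) of the histone probe sets (filled) and of all probe sets (open) in the 4 comparisons, as deposited and under each alternative processing (y axis). The medians for GMPs and for WT MPPs minus WT GMPs stay left of 0 throughout, while those involving Bcl11a-/- MPPs cross it, at 0.24 and 0.065, when the arrays are quantile normalized anew.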

How the data were processed

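One array was read for each of 4 samples. According to the study's methods and the labels, RNA was isolated with an RNAqueous-Micro kit, amplified with Ovation PicoSL, labeled with biotin and read on 1-color mouse arrays, and the deposited values are log2 signals that the authors normalized by RMA and quantile normalization in ArrayStar, release not given in the sources used here. How the amplification treats mRNAs without a poly(A) tail was not tested. Probe sets were named through GEO's platform annotation. Of 30177 rows, 1324 at the start of the ID range without a gene were taken as controls and left out. Of the 28853 others, 21789 had 1 symbol, 1621 several and 5443 none. All 62 Entrez IDs of the members were found in the RefSeq table (GRCm38.p6), which also gave gene order and promoters.

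Samples were grouped by the titles. Differences of log2 signals were computed in Python 3.11.15 with pandas 2.3.3, numpy 2.4.6 and statsmodels 0.14.6, and the scripts were tested on simulated data. A difference over 2-fold was counted. Genes were given the mean of their probe sets with 1 symbol. The members named were those over 2-fold between genotypes, up to 3 of each direction in each comparison with a signal of at least 6 on either array, and the one nearest each class median, and for each list the genes over 2-fold (up to 3 a direction) and the gene nearest its median. The remaining single-gene members, the H1 and H3.3 genes, Slbp, Npat and H2ax were added after their values were seen. The members and lists were chosen with earlier results of these data known. Alternatives covered a floor of 5, a filter at 6, median and lowess centring (span 0.3), quantile normalization anew, 1 symbol only, equal sets counted once, all rows, and thresholds of 1.5-fold and 3-fold. The number of arrays limits the precision.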

Additional observations from a re-analysis of the deposited data

Results flagged for a closer look

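In 4 members and 2 class medians the 2 populations differed in opposite directions between genotypes, each member by more than 0.3 on the log2 scale in each. The share of all probe sets past 0.3 in opposite directions was not computed. By sign alone, 27.1% of members and 24.4% of all probe sets were lower in GMPs and higher in MPPs. The reverse held for 2.08% of members and 20.4% of all. The difference between the populations was not tested, since each condition has 1 array. H2bc4 differed by 0.80 in MPPs and -0.44 in GMPs on the log2 scale. H4c9 differed by 0.66 in MPPs and -0.55 in GMPs. H4c6 differed by 0.35 in MPPs and -0.70 in GMPs. H2ac8, with signals under 6 on every array, differed by 0.57 in MPPs and -0.81 in GMPs. The median of the 4 H2a probe sets was 0.054 in MPPs and -0.29 in GMPs, and that of the 12 H4 probe sets was 0.15 in MPPs and -0.31 in GMPs.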

How the results depend on the processing

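Medians over all members kept their sign under every alternative in Bcl11a-/- minus WT GMPs and in WT MPPs minus WT GMPs. In Bcl11a-/- minus WT MPPs the median of -0.12 turned to 0.042 with lowess centring and to 0.24 when quantile normalized anew, and in Bcl11a-/- MPPs minus Bcl11a-/- GMPs the median of -0.30 became -0.15 with lowess centring and 0.065 when quantile normalized anew. The new quantile normalization sets the narrower range of the Bcl11a-/- MPP array equal to its partner's by construction. Counts over 2-fold of 4, 3, 4 and 7 (Bcl11a-/- minus WT MPPs, Bcl11a-/- minus WT GMPs, WT MPPs minus WT GMPs, Bcl11a-/- MPPs minus Bcl11a-/- GMPs) became 8, 8, 19 and 15 at 1.5-fold and 1, 0, 1 and 3 at 3-fold. Of the members past 1.5-fold, 6, 8, 18 and 10 were lower and 2, 0, 1 and 5 higher, in the same order. Of all probe sets, 7.23%, 1.83%, 7.58% and 11.5% were past 1.5-fold lower. Past 1.5-fold higher were 6.02%, 2.22%, 7.21% and 12.1% of all. Past 3-fold, 0.7%, 0.097%, 0.683% and 2.14% of all were lower and 0.395%, 0.0659%, 0.322% and 0.776% higher. With a filter at a signal of 6 the H2a median turned to 0.18 in GMPs and -0.048 in MPPs. In MPPs, quantile normalization anew turned the H2b median to 0.10, that of H3 to 0.25 and that of the 3 sets that span classes to 0.18, and lowess centring turned the last 2 to 0.044 and 0.0185. With 1 symbol only, or 1 value per gene symbol, the MPP median of H3 turned to 0.15 and that of H4 to -0.09. Other causes were not tested. Averaging the sets of more than 2 symbols to 1 value per class and adding the H1 linker genes, both chosen after seeing the data, turned no median and moved no count by over 1.5 times. Counting members by their sign in both populations, and the medians of the other gene lists, under the scalings was also added after seeing the data. The H1 class had no member, so it has no alternatives. No paired analysis was possible because each condition has 1 array, and for the same reason no replicate could be left out.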
